A study of Mus musculus with 192 samples.

Results

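Genes of cell division and DNA replication were followed in single mouse embryonic fibroblasts (connective-tissue cells grown from mouse embryos) of strain C57BL/6. The 42 genes were taken as 23 genes of mitosis, 13 of DNA replication and nucleotide supply, and 6 regulators of the G1 phase, the gap before DNA synthesis. Of these, 41 had an annotated promoter window and 40 had at least 1 listed peak, out of 11731 genes with a listed promoter peak in the whole series. Nusap1 and Cdkn2a had none. Start-site sequencing of single cells sequences the 5′ end of each captured polyadenylated transcript, and a tag is taken here as a place where transcription began. Whether each tag, such as those in exons, marks such a place was not tested. Every cell of both groups had received interferon-beta, a secreted antiviral protein, at 100 U/ml for 1 h. The "Naïve-1h" group held 96 cells with no earlier treatment named, and the "Preteated-1h" group, as the titles spell it, held 96 cells whose pretreatment the labels do not specify. The stated purpose of the study was to find alternative start sites in such stimulated fibroblasts, and its labels allow the comparison of pretreated with naïve cells. Cells without interferon were not analysed here.

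A dividing cell copies its DNA in S phase and separates the copies in mitosis. Genes for the replication machinery are known to be transcribed from late G1 into S phase, many of them through E2F transcription factors, and genes for the mitotic apparatus in G2 and mitosis, many of them through CCAAT boxes bound by NF-Y and through a TTTGAA element called the cell cycle homology region. D-type cyclins drive cells out of G1, and the inhibitors encoded by Cdkn1a and Cdkn2a hold them back.

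Promoter sequences are shown for 6 genes because they hold the CCAAT box, the element TTTGAA and E2F letters in different combinations, with Tyms as an example without any. They are the 150 bases before the annotated start in RefSeq, build GRCm38.p6, on the strand of the gene, with every match to a searched motif in capitals. Their positions were Ccnb2 at chr9:70421555-70421704 (-), Cdk1 at chr10:69352913-69353062 (-), Mcm6 at chr1:128359706-128359855 (-), Mcm7 at chr5:138171884-138172033 (-), Pcna at chr2:132253181-132253330 (-) and Tyms at chr5:30073626-30073775 (-). Ccnb2, Mcm7, Pcna and Tyms were among the 6 matched genes listed in the most cells, and Cdk1 and Mcm6 were added after their values were seen.
Ccnb2: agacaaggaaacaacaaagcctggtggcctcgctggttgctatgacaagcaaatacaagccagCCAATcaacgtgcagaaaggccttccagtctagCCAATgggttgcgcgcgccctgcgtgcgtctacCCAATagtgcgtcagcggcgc
Cdk1: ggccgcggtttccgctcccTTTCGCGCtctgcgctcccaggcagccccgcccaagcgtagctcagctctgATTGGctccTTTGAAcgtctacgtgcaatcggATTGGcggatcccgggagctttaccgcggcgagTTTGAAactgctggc
Mcm6: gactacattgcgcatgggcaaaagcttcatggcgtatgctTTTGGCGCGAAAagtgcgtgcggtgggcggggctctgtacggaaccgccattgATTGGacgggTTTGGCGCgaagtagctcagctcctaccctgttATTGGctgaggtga
Mcm7: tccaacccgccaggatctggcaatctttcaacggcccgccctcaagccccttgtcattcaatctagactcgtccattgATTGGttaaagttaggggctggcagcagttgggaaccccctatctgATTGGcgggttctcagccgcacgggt
Pcna: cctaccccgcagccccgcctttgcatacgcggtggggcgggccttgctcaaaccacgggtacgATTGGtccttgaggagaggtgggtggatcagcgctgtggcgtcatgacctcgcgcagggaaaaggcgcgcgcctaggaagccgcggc
Tyms: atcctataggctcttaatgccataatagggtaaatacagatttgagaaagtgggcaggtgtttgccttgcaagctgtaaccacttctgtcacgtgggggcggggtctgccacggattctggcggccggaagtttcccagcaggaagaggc

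The Ccnb2 promoter held CCAAT at positions -87, -54 and -21, counted from the annotated start, and TTTGAA at -167 and 5, both outside the printed stretch. The Cdk1 promoter held an E2F sequence at -131, CCAAT boxes at -208, -80 and -48, and TTTGAA at -71 and -15. Mcm6 held E2F sequences at -110, -106 and -47, of which the pair at -110 and -106 overlapped, and CCAAT boxes at -57 and -14. Mcm7 held CCAAT boxes at -72, -26 and 24 and E2F sequences at -165 and 17. Its E2F sequences and the CCAAT box at 24 lie outside the printed stretch. Pcna held a single CCAAT box at -87. Tyms held no match in the 300 bases searched, nor did Birc5 or Cdkn1a, which completed the 6 genes in the most cells and are not printed.

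The motifs were searched on both strands in the 300 bases from 250 before to 50 after each RefSeq start, and 33 of the 42 genes were in that table. CCAAT stood in 17 of 19 mitosis promoters (89.5%), 8 of 11 replication promoters (72.7%) and 0 of 3 G1 regulators, against 37.9% of 27025 promoters of all genes. TTTGAA stood in 14 of 19 mitosis promoters (73.7%) and in 1 of 11 replication promoters, that of Mcm2, against 18.1% of all promoters. CCAAT and TTTGAA stood together in those same 14 mitosis promoters, in Mcm2 and in 7.12% of all promoters. An E2F sequence, searched as TTTCGCGC, TTTGGCGC or TTTCCCGC (matches on opposite strands can overlap), stood in 6 of 11 replication promoters (Mcm3, Mcm5, Mcm6, Mcm7, Cdc6 and Cdt1), in Cdk1 alone among 19 mitosis promoters, and in 1.91% of all promoters. TATAAA stood in 0 of the 33 promoters and in 14.2% of all. The core of the interferon-stimulated response element, searched as GAAA, any 2 bases and GAAA again, stood in 1 of 33, that of Bub1b, and in 3.49% of all. These are letter matches in annotated promoters, not measured binding.

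After 4 naïve and 11 pretreated cells with under 10% of the median total were left out, 92 naïve and 85 pretreated cells remained, with 305066 to 3857034 and 502374 to 13174313 total tags per cell. A naïve cell listed a median of 1975.5 genes and a pretreated cell 2942, and 54.4% and 61.2% of all tags fell in promoter peaks. The kept naïve cells listed 1287 peaks on the mitochondrial chromosome and the pretreated cells 0, a difference between the libraries whose part in the results was not tested. Of 14 fibroblast markers, 13 were listed. Levels count tags of 5′ ends near annotated starts and so are not scaled by gene length. Sparc was at 5435 and 6238 tags per 1000000 promoter tags (CPM) and listed in every kept cell, Vim was at 1093 and 1778 CPM, Fn1 at 528 and 240 CPM and Col3a1 at 251 and 156 CPM. Of the 7 markers that reached 50 CPM, 4 were higher and 3 lower in pretreated cells, and Thy1 was listed in 1 naïve cell only. Of 8 blood markers 3 were listed, with a sum of 15.3 and 2.75 CPM. Of 7 epithelial markers 0 were listed, and of 6 endothelial markers 1 was listed, in 1 pretreated cell. Each cell is 1 library and no culture, animal or plate is named, so each group is 1 sample. No difference between the groups was therefore tested, and intervals cover counting error only. A gene not listed in a cell had no peak called by the authors, which does not show that the RNA was absent. The headers give a calling threshold of 200 tags per 10000000, but the listed values of these genes reached down to 136.7.

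Summed over cells, the 42 genes held 0.430% of naïve promoter tags (95% exact binomial interval 0.429 to 0.431) and 0.411% (0.410 to 0.412) of pretreated promoter tags. The mitosis genes held 0.199% and 0.193%, the replication genes 0.165% and 0.159%, and the G1 regulators 0.0663% and 0.0586%. As log2 ratios of pretreated over naïve, the 4 sums were -0.07, -0.04, -0.05 and -0.18. The signs of the first 3 turned positive when tags were scaled to the header totals (0.10, 0.13 and 0.12), when each cell was weighted equally (0.21, 0.34 and 0.11), which also turned the G1 regulators (0.01), and with the GENCODE table (0.05, 0.06 and 0.06). Counting all windows named for a gene also turned mitosis (0.0014) and replication (0.01). A window carries the name of the gene with the nearest annotated start, so distal windows can hold tags of a neighbouring gene. No direction is therefore given for these sums.

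Of the 42 genes, 24 reached 50 CPM in at least 1 group and the other 18 did not. Among the 24, 3 were at least 2-fold higher in pretreated cells (Mcm6, Mcm5 and Ccnd1; 12.5%), against 21.2% of the 3073 genes of the series at that level. At least 2-fold lower were 4 (Top2a, Tpx2, Pcna and Tyms; 16.7%), against 13.1%. The remaining 17 lay between. Scaled to the header totals, which moved all log2 ratios by 0.17, 5 were higher and 2 lower. Under median-of-ratios scaling, which moved them by -0.13, 2 were higher and 5 lower. Mcm6, Mcm5 and Top2a stayed past 2-fold under all 9 alternative settings tried for single genes. The median log2 ratio was 0.13 over the 24 genes and 0.21 over all 3073. Its sign depended on the minimum level, at -0.16 (0.25 over all genes) with 20 CPM and -0.0851 (0.12 over all genes) with 200 CPM. Of the 24, 13 had a higher level in pretreated cells (54.2%) and 11 a lower one, against 59.3% higher over all 3073 genes.

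**Figure D1:**
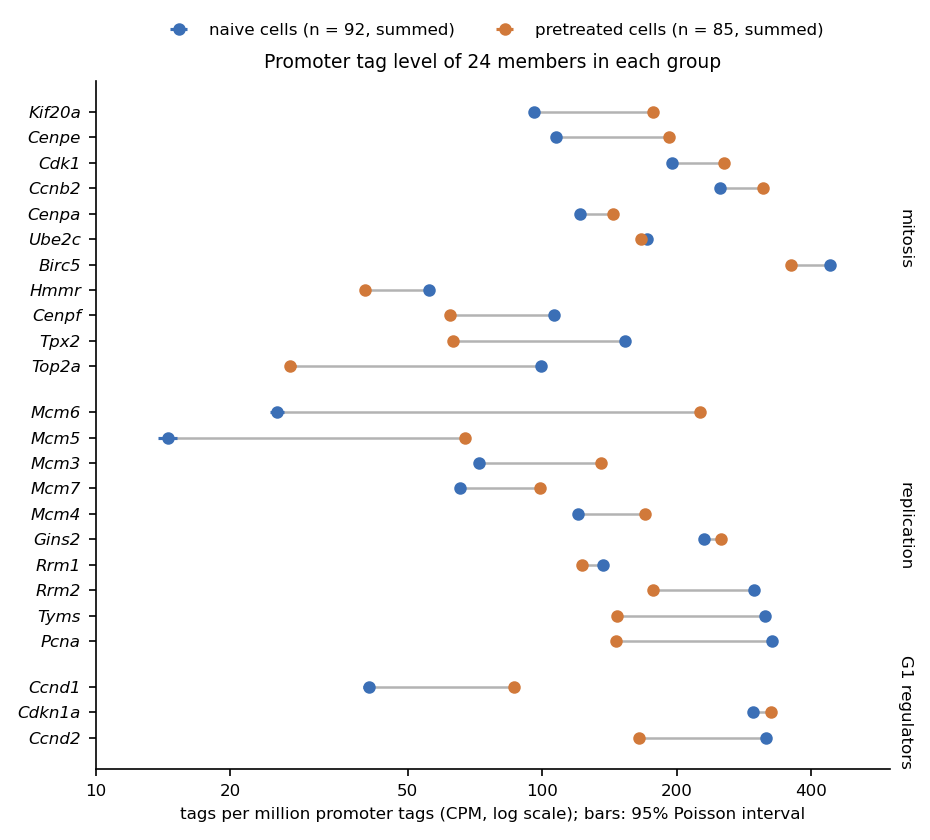
Promoter tag level of the 24 genes that reached 50 CPM, in tags per 1000000 promoter tags on a log axis, summed over 92 naïve (blue) and 85 pretreated (orange) cells, with 95% exact Poisson intervals that are mostly narrower than the points. Mcm6 and Mcm5 have the longest lines towards the pretreated point, and Top2a, Tpx2, Pcna and Tyms have the longest lines towards the naïve point at the higher level.

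The largest differences among the 24 genes were in 2 subunits of the replication helicase, Mcm6 and Mcm5. Mcm2 to Mcm7 are the 6 subunits of the ring that unwinds DNA ahead of the fork. Summed over promoter windows, they stood at 301 CPM over the naïve cells and 714 CPM over the pretreated cells (log2 ratio 1.25). Of these sums, Mcm6 alone held 25.5 and 225 CPM. Counting all windows named for the gene lowered the log2 ratios of Mcm3, Mcm4, Mcm5 and Mcm6 to -0.17, 0.32, 1.72 and 2.07. That of Mcm7 rose to 0.69. Mcm6 was at 25.5 CPM (95% exact Poisson interval 24.6 to 26.5) over the naïve cells and 225 CPM (223 to 227) over the pretreated cells. Its log2 ratio of 3.14 ranged from 2.07 to 3.33 over the alternative settings. It was listed in 16 of 92 naïve cells (17.4%, exact interval 10.3 to 26.7) and in 66 of 85 pretreated cells (77.7%, 67.3 to 85.97). Within the cells that listed it, its level per cell, in tags per 10000000 tags of the cell, ran from 223 over a median of 546 to 1818 in naïve cells and from 202 over 1491 to 4891 in pretreated cells. Beyond 1000 bp of the start, windows named for Mcm6 held 4266 naïve and 2199 pretreated tags, against 2821 and 39502 promoter tags. Counting every window named for the gene, it was listed in 32 naïve and 70 pretreated cells. By either count Mcm6 was thus listed by a minority of naïve cells and by most pretreated cells. Its promoter levels overlapped among the cells that listed it.

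Mcm5 was at 14.5 and 67.1 CPM, a log2 ratio of 2.21, and was listed in 8 naïve and 33 pretreated cells. Its level per listing cell was 217 to 2146 (median 656) in naïve and 234 to 5352 (median 537) in pretreated cells. The higher promoter sum thus went with more listing cells and not with a higher median per listing cell. Counting every window named for the gene, Mcm5 was listed in 29 naïve and 52 pretreated cells. Mcm3 was at 72.1 and 136 CPM (log2 0.91), but at -0.17 when all windows named for the gene were counted. Mcm4 was at 120 and 170 CPM (log2 0.50) and was listed in 46 and 50 cells. Mcm7 was at 65.5 and 99.1 CPM (log2 0.60) in 49 and 51 cells. Mcm7 shares 59 stretches of 40 bases, from the first 200 bases of its transcripts, with the pseudogene Gm5487, so tags could have been assigned to either copy. A single transcript holds at most 161 such stretches. Mcm2, under the 50 CPM minimum, held 369 naïve tags in 4 cells and 2934 pretreated tags in 11 cells. The 5 subunits that reached the minimum were all higher in pretreated cells, against 59.3% of all 3073 genes at that level. All but Mcm3 kept that sign under every alternative tried.

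Pcna, the sliding clamp that holds DNA polymerase on its template, was at 327 CPM over the naïve cells against 146 CPM over the pretreated cells (log2 ratio -1.16). Pcna was listed in 68 naïve and 60 pretreated cells, with a level per listing cell of 307 to 7528 (median 1894) and 215 to 3583 (median 989). Tyms, thymidylate synthase, which makes the thymidine precursor of DNA, was at 316 and 147 CPM (log2 -1.11) and was listed in 67 cells of each group, with medians per listing cell of 1854 and 1036. For both genes the share of cells listing them was similar and the level per listing cell was lower in pretreated cells, with overlapping ranges. Both kept their sign under the alternatives tried. Pcna fell short of 2-fold under header totals only (log2 -0.99), and Tyms was past it in 5 of 9 settings, at -0.77 with each cell weighted equally.

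Rrm1 and Rrm2 encode the large and small subunits of ribonucleotide reductase, which makes deoxynucleotides. Rrm2 was at 297 and 177 CPM (log2 -0.75) in 48 and 46 cells. Rrm1 was at 137 and 123 CPM in 34 and 52 cells, and its log2 ratio of -0.16 became 0.40 with each cell weighted equally. Gins2, a subunit of the GINS complex that works with the helicase, was at 230 and 251 CPM (log2 0.13, and -0.00057 under median-of-ratios scaling) in 46 and 62 cells. Cdc6 and Cdt1, which load the helicase onto origins, did not reach the minimum: Cdc6 was at 43.5 and 34.7 CPM in 14 and 18 cells, and Cdt1 was listed in 1 and 2 cells. Without Mcm6, the sum over the replication genes had a log2 ratio of -0.25 in place of -0.05, and the sum over all 42 genes -0.14 in place of -0.07, an alternative chosen after the values were seen.

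Among the mitosis genes 0 of 11 at the minimum were 2-fold higher and 2 were 2-fold lower in the main setting. Top2a, the topoisomerase that untangles sister chromatids, was at 99.6 CPM over the naïve cells against 27.3 CPM over the pretreated cells, with a log2 ratio of -1.87 (-1.995 to -1.16 over the alternative settings). It was listed in 31 naïve and 21 pretreated cells, at 263 to 5200 (median 1006) and 206 to 2330 (median 809) per listing cell. Tpx2, a spindle assembly factor that activates Aurora A, was at 153 and 63.1 CPM (log2 -1.28) in 37 and 35 cells, and at -0.72 with each cell weighted equally. Cenpf, a kinetochore protein, was at 106 and 62.2 CPM (log2 -0.77) in 31 and 32 cells. Hmmr, a spindle protein first known as a hyaluronan receptor, was at 55.8 and 40.2 CPM (log2 -0.47) in 32 and 26 cells. Top2a and Hmmr were the 2 of the 11 listed in a smaller share of pretreated than of naïve cells.

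Other mitosis genes were higher in pretreated cells by less than 2-fold in the main setting. Kif20a, a motor of the dividing midzone, was at 95.8 and 177 CPM (log2 0.88) and was listed in 29 and 50 cells. Cenpe, a kinetochore motor, was at 108 and 192.4 CPM (log2 0.84) in 28 and 41 cells. Cdk1, the kinase that starts mitosis, was at 196 and 255 CPM (log2 0.38) in 36 and 53 cells. Its partner Ccnb2, cyclin B2, was at 250 and 312 CPM (log2 0.32) in 51 and 64 cells, at 230 to 7226 (median 1957) and 334 to 15190 (median 2446) per listing cell. Cenpa, the histone that marks centromeres, was at 121 and 144 CPM (log2 0.25) in 41 and 43 cells. These 5 kept their sign under the alternatives tried. Kif20a was past 2-fold in 3 of the 9 alternative settings and Cenpe in 2. With each cell weighted equally, their log2 ratios were 1.19 and 1.16. Birc5 (survivin, of the chromosomal passenger complex) had the highest level of the 42 genes, at 442 and 360 CPM in 51 and 53 cells, and its log2 ratio of -0.30 became 0.06 with each cell weighted equally. Ube2c, a ubiquitin-conjugating enzyme of the anaphase-promoting complex, was at 172 and 167 CPM (log2 -0.04, and 0.39 with each cell weighted equally) in 28 and 43 cells.

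The other 12 mitosis genes lay under 50 CPM in both groups. Mki67, the gene of the Ki-67 proliferation marker, was at 2.83 and 3.62 CPM and was listed at its promoter in 4 and 3 cells. Cyclins A2 and B1 were also listed in few cells within 1000 bp of the annotated start, Ccna2 in 1 and 3 cells and Ccnb1 in 2 and 2. Counting every window named for the gene, Mki67 was listed in 35 and 16 cells, Ccnb1 in 13 and 7, and Ccna2 in 19 and 33, and the distal Ccna2 window of most tags, 1070 bp downstream of the start, lay just past the 1000 bp limit with 2071 tags from 3 cells. The 5′ end of Ccnb1 is repeated in pseudogenes, among them Ccnb1-ps, which shares 161 such stretches of 40 bases, so the value of Ccnb1 is uncertain. Aurka, the Aurora A kinase, was at 33.6 CPM in 16 naïve cells and 4.62 CPM in 6 pretreated cells. Aurkb was at 47.9 and 26.3 CPM, Bub1 at 24.1 and 21.6, Cdc20 at 24.2 and 20.1, Bub1b at 19.04 and 26.3, and Kif23 at 21.4 and 10.2 CPM. Plk1 was at 10.5 and 8.73 CPM and Kif11 at 2.98 and 10.7 CPM. These genes of the checkpoint, spindle and cytokinesis were listed in 3 to 20 cells of a group.

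The G1 regulators differed among themselves. Ccnd2, cyclin D2, was listed in more cells than any other of the 42 genes, 90 naïve and 79 pretreated. Its level was 318 and 165 CPM (log2 -0.95), at 171 to 6082 (median 1673) and 207 to 2712 (median 931) per listing cell. Ccnd1, cyclin D1, was at 40.9 and 86.3 CPM (log2 1.08) and was listed in 19 naïve and 53 pretreated cells, with medians of 728 and 669 per listing cell. Counting all windows named for Ccnd1, its log2 ratio was 0.34 and it was listed in 42 naïve and 67 pretreated cells. At their promoters the paralogs thus differed in opposite directions, Ccnd1 in the number of listing cells and Ccnd2 in the level per listing cell. Cdkn1a, which encodes the p21 inhibitor of cyclin-dependent kinases, was at 297 and 325 CPM (log2 0.13) in 50 and 56 cells. The E-type cyclins, which act at entry into S phase, were listed in few cells: Ccne1 was listed in 1 and 4 cells, and Ccne2 was listed at 0 in naïve cells and in 1 pretreated cell.

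By share of cells, 27 of the 42 genes reached a listing share of 20% in at least 1 group. The share was at least 20 percentage points higher in pretreated cells for 8 of them: Mcm6, Ccnd1, Mcm5, Kif20a, Rrm1, Cdk1, Gins2 and Ube2c. This compares with 42.2% of the 4504 genes of the series at that share. The share was 20 points lower for 0 of the 27, against 2.69% of the 4504. The median share over the 42 genes was 25.5% in naïve and 38.2% in pretreated cells, beside the larger number of genes listed per pretreated cell given above. The part of that larger number in the shares was not tested.

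**Figure D2:**
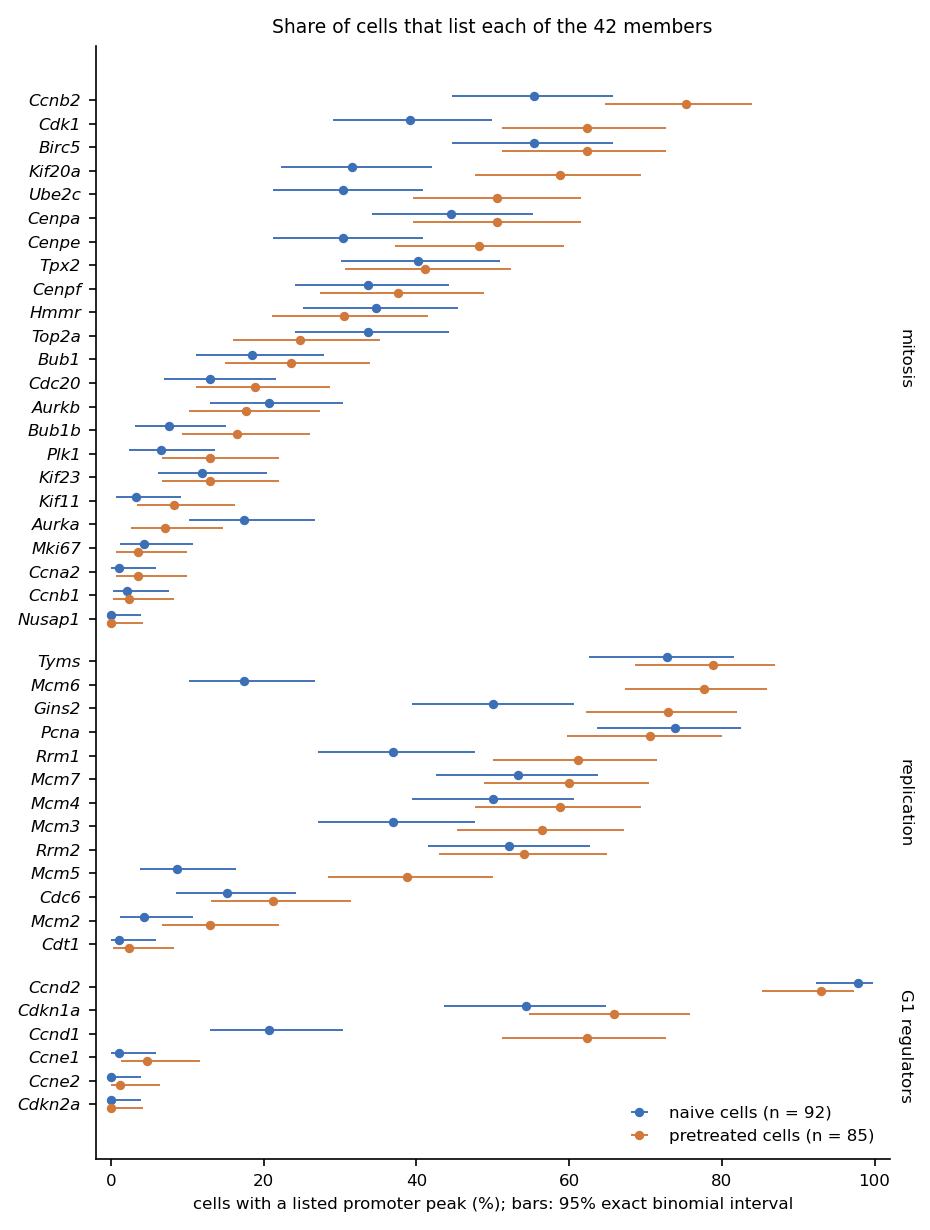
Share of the 92 naïve (blue) and 85 pretreated (orange) cells with a listed promoter peak of each of the 42 genes, in percent, with 95% exact binomial intervals. Mcm6 moves from 17.4% to 77.7% and Ccnd1 from 20.7% to 62.4%, while Ccnd2 is at 97.8% and 92.9% and Mki67 at 4.35% and 3.53%.

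Cells differed widely in how many of these genes they listed. The number ran from 0 to 27 (median 12) over naïve and from 1 to 29 (median 15) over pretreated cells. As a percentage of all genes a cell listed, the median over cells was 0.637% and 0.555%. The mitosis genes ran from 0 to 18 (median 4) and from 0 to 17 (median 6), and 26 naïve and 11 pretreated cells listed none of the 23. The replication genes ran from 0 to 10 (median 5.5) and from 0 to 12 (median 7), and 8 and 2 cells listed none of the 13. The share of a cell's promoter tags in the 42 genes ran from 0% to 1.12% (median 0.422%) and from 0.0197% to 1.24% (median 0.400%). The groups overlapped over nearly the whole range of each of these counts.

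Cells with more mitosis genes also tended to list more replication genes, with a Spearman rho of 0.64 over 92 naïve and 0.60 over 85 pretreated cells. Both counts come from the same library. They moved with the number of genes the cell listed, with rho 0.58 and 0.35 for mitosis and 0.72 and 0.62 for replication, and less with total tags, with rho 0.09 and -0.20 for mitosis and 0.12 and -0.07 for replication. Replication genes were listed in more cells than mitosis genes, with a median share per gene of 36.96% against 20.7% in naïve and 58.8% against 23.5% in pretreated cells. Of the cells without a mitosis gene, 19 of 26 naïve and 10 of 11 pretreated cells listed at least 1 replication gene, with a median of 2 and at most 6 and 5. Of the 8 and 2 cells without a replication gene, 1 in each group listed a mitosis gene. The share expected from the higher listing of replication genes alone was not computed.

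**Figure D3:**
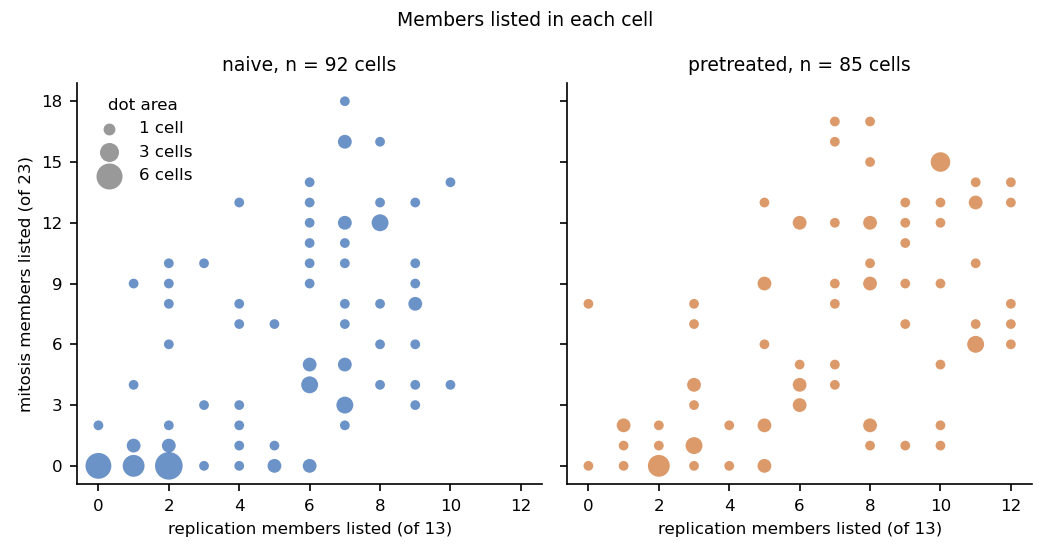
Mitosis genes (of 23) against replication genes (of 13) listed in each cell, naïve cells left and pretreated cells right, with dot area for the number of cells at a point. Cells in both panels run from the lower left corner to more than 12 mitosis genes, and cells with many replication and few mitosis genes are present in both.

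By the median, pairs of mitosis genes were listed in the same cells more than other pairs, though single pairs overlapped between the kinds. Same-cell listing was measured by phi, the correlation of the listed or not listed states of 2 genes over the cells of a group. Its median was 0.51 in naïve and 0.54 in pretreated cells over 55 mitosis pairs, 0.31 and 0.34 over 45 replication pairs, and 0.26 and 0.32 over 110 mixed pairs. Against fibroblast markers, the median was 0.06 and 0.05. In naïve cells phi ran from 0.10 to 0.67 over mitosis pairs, -0.04 to 0.63 over replication pairs and -0.03 to 0.56 over mixed pairs. In pretreated cells the same ranges were 0.25 to 0.73, 0.04 to 0.62 and -0.03 to 0.53. Birc5 and Cenpa were listed together in 37 of 92 naïve cells (phi 0.63) and in 40 of 85 pretreated cells (phi 0.64), with neither in 37 and 29. Ube2c and Cenpe, listed together in 21 and 34 cells, had phi 0.64 and 0.62. Mcm6, whose share differed most, had a median phi with the other replication genes of 0.17 in naïve and 0.24 in pretreated cells, and with the mitosis genes of 0.12 and 0.13. For Mcm7 the median with the replication genes was 0.49 and 0.40. Ccnd2, listed in nearly every cell, had medians of 0.11 and -0.07 with the mitosis genes, and Cdkn1a 0.26 and 0.18. All pairs of a group share its cells and libraries, and phi is limited where 2 genes differ in how many cells list them.

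**Figure D4:**
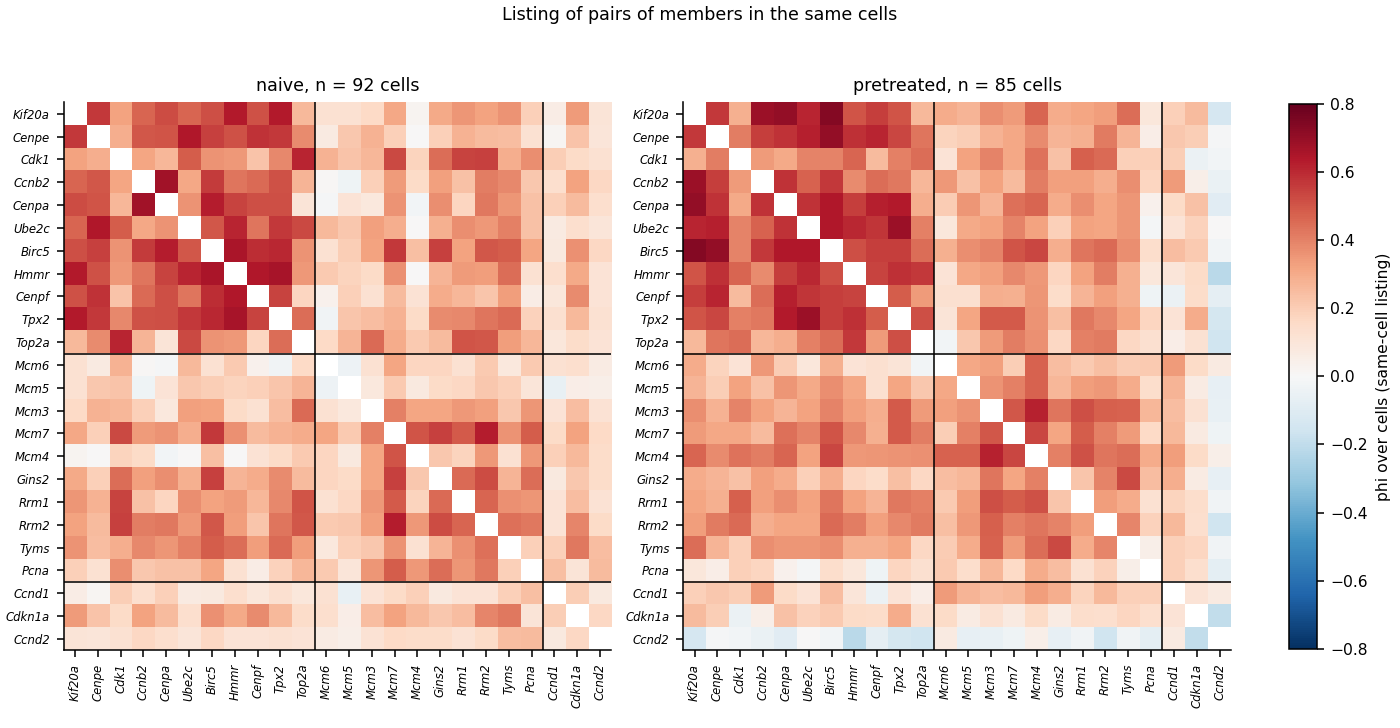
Phi over 92 naïve (left) and 85 pretreated (right) cells for each pair of the 24 genes that reached 50 CPM, from blue (listed in different cells) to red (listed in the same cells), with lines between mitosis, replication and G1 genes. The mitosis block at the upper left is the darkest in both groups, with medians of 0.51 and 0.54.

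The leading windows of the 24 genes lay close to each other in the groups. Only tags within 1000 bp of an annotated start were counted, so nearness to it is partly set by that limit. Beyond the limit lay 22.03% of naïve and 15.5% of pretreated tags in windows named for the 42 genes, on their strand. Distances are from the annotated RefSeq start to the centre of the 150 bp window, positive into the gene, on build mm9. Of the promoter tags of all 42 genes, 93.2% of naïve and 90.1% of pretreated tags lay within 100 bp, against 80.6% and 81.2% over all genes. Within 50 bp lay 70.6% and 59.9%, against 62.7% and 63.2% over all genes. The tag-weighted median distance was 31 bp in naïve and 40 bp in pretreated cells, against 29 and 30 bp over all genes. It pools the tags of all 42 genes, whose levels differed between the groups. The part of those levels in the distance was not tested. The leading window, with the most tags of the gene, coincided between the groups for 12 of the 24 (7 of 11 mitosis, 3 of 10 replication and 2 of 3 G1 genes). Over the 3038 genes of the series that passed the same minimum level and share of cells and were listed in both groups, it coincided for 38%. The leading windows lay within 50 bp of each other for 23 of the 24, with Ccnd1 at 101 bp, against 90.2% of the 3038 genes.

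The leading windows of the replication genes lay 0 to 48 bp apart. For Mcm6 the leading window was chr1:130256143-130256292 in naïve cells, 65 bp into the gene with 29.2% of the tags of the gene, and chr1:130256157-130256306 in pretreated cells, 51 bp into the gene with 23.95%. For Pcna it was chr2:132078843-132078992 in naïve cells, at -1 bp with 51.7% of tags in 29 cells. No pretreated Pcna peak was counted for that window, since a peak counts only for a window whose start it matches within 2 bp. In pretreated cells chr2:132078874-132079023, at -32 bp, led with 27.1% in 10 cells. These windows overlap. With windows within 150 bp joined, the leading Pcna site was the same and held 98.8% of naïve and 98.4% of pretreated tags. Mcm3 led at 63 bp and 79 bp, Mcm4 at 36 bp and 71 bp, and Mcm7 at 1 bp and 21 bp. Leading shares of Mcm3 to Mcm7 ran from 14.6% to 38.5%, so no single window, counted by its start, held most of their tags. With windows within 150 bp joined, the leading site did hold most of the tags of each. The joined share was lowest for Mcm7, at 85.54% of naïve and 80.97% of pretreated tags, and was 100% for Mcm3 in both groups. Mcm5 had its naïve leading window in 1 cell only.

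Values of several other genes, picked after they were seen, are given with their shares. Top2a led at -1 bp in both groups, with 84.3% of naïve and 44.4% of pretreated tags, and Cdk1 at -1 bp with 42.3% and 47.2%. Cdkn1a led at 6 bp with 61.3% and 51.99%. Tyms led at 45 bp with 39.8% and 55.9%, and Gins2 at 20 bp with 41.5% and 62.6%. Tpx2 led at 81 bp with 79.8% and 50.4%. Ccnd1 led at 124 bp in naïve cells, in 1 cell with 22.3% of tags, and at 225 bp in pretreated cells, in 18 cells with 46.03%. The deposited focus ratio, the fraction of the tags of a peak near its main position, had a median of 0.927 over 1119 naïve and 0.857 over 1368 pretreated peaks of the 42 genes. Over all promoter peaks it was 0.956 and 0.897. The lower ratio in pretreated cells was therefore shared with promoter peaks at large.

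**Figure D5:**
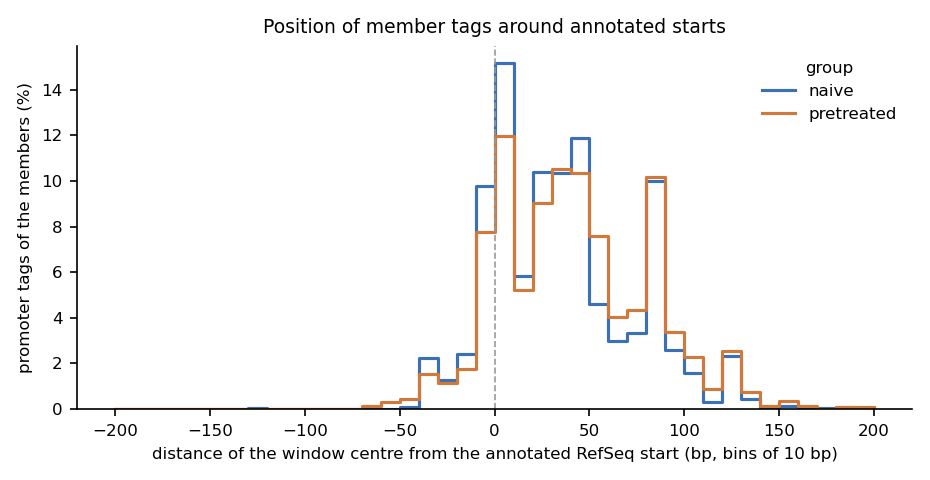
Percent of the promoter tags of the 42 genes by distance of the window centre from the annotated start, in bins of 10 bp, for naïve (blue) and pretreated (orange) cells. Both groups are high around the start, between 20 and 50 bp and at 80 to 90 bp, and the pretreated line is higher between 50 and 80 bp. The genes are pooled, and their levels differ between the groups.

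Other genes of the same pathways were counted from lists of 46 mitosis, 45 replication and 32 G1 and arrest genes, to be read against 21.2% higher, 13.1% lower and a median log2 ratio of 0.21 over all genes. Of the mitosis list, 22 reached 50 CPM, 2 were at least 2-fold higher in pretreated cells (9.09%) and 5 lower (22.7%), with a median log2 ratio of -0.44. The 2 highest were Pttg1 (securin, which guards sister chromatid cohesion), at 2.83 CPM in 4 naïve cells and 166 CPM in 78 pretreated cells (log2 5.88), and Racgap1 (of the cytokinetic centralspindlin complex), at 5.38 and 50.6 CPM (log2 3.23). The 2 lowest were Tubb4b (a tubulin) at 91.2 and 10.7 CPM (log2 -3.09) and Hmgb2 (a chromatin protein) at 213 and 26.99 CPM (log2 -2.98). Of the replication list, 26 reached 50 CPM, 3 were higher (11.5%) and 2 lower (7.69%), with a median of -0.21. Dut, which removes dUTP, was at 30.1 and 161 CPM (log2 2.42), and Rfc5, of the clamp loader, at 21.5 and 79.3 CPM (log2 1.88). Dnmt1, the maintenance DNA methyltransferase, was at 99.9 and 43.7 CPM (log2 -1.19), and the histone chaperone Asf1b at 88.7 and 44.2 CPM (log2 -1.004). Both directions were thus present in these lists as in the 42 genes.

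Of the G1 and arrest list, only 7 reached 50 CPM. Of these 3 were at least 2-fold higher and 0 lower, against 21.2% and 13.1% of all genes, and the median log2 ratio was 0.69 against 0.21. The 2 highest were Cdkn2b, the p15 inhibitor, at 10.2 CPM in 10 naïve cells and 78.01 CPM in 45 pretreated cells (log2 2.93), and Mdm2, the ligase that degrades p53, at 86.1 and 294 CPM (log2 1.77). The 2 lowest were Btg2 at 348 and 312 CPM (log2 -0.16) and Btg1 at 108 and 129 CPM (log2 0.26), both antiproliferative genes. Trp53, which encodes p53, was the third past 2-fold, at 251 and 580 CPM (log2 1.21).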

How the data were processed

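Start-site peaks of 192 single cells were used. Bowtie2, HOMER and build mm9 are named in the submitters' processing notes. Per the file headers, the authors called peaks in each cell and strand with HOMER, in windows of 150 bp at least 300 bp apart, with at least 200 tags per 10000000, 2 times the density of the surrounding 10000 bp and a Poisson p of 0.0001. The deposited signal gives the tags of a peak scaled to 10000000 tags of the cell, and the deposited focus ratio is a fraction, per the file headers. Read filters, duplicate handling and library strand are not given in the sources used here, and no molecular identifiers are named, so a tag is a read. All 1082504 peaks came back to whole tags within 0.1 from the header totals or within the rounding of the value.

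The members and lists were chosen with earlier results of these data known. Peaks on the strand of the gene that started within 2 bp of a RefSeq window at most 1000 bp from the annotated start counted for the gene. Strand came from the deposited distances for 666 of 667 windows and from GENCODE vM21 for 1. Tags were summed over kept cells and scaled to CPM of promoter tags, with 0.5 tags added to both sums before each log2 ratio. Intervals at 95% are exact, Poisson for sums and Clopper-Pearson for shares. Since each group is 1 sample, the groups were not compared by a statistical test. The design had assumed counts; recovered tags took their place. Genes are given in full where they reached 50 CPM and 20% of cells in a group, and other pathway genes by the 2 highest and 2 lowest ratios of each list. Copies were sought as stretches of 40 bases shared between the first 200 bases of the coding transcripts of a gene and a pseudogene. At least 50 shared stretches were required, and a single transcript holds at most 161. The calculation of the ratios was checked on simulated tags with known ratios. Python 3.11.15, numpy 2.4.6, pandas 2.3.3 and scipy 1.17.1 were used. Another 384 columns of per-cell values without sample names were not used here. Alternatives changed the scaling, the cells kept, the windows, strand, weighting, annotation table and minimum level.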

Additional observations from a re-analysis of the deposited data

Results flagged for a closer look

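Tags in windows named for the 42 genes, but not counted at their promoters above, were listed in both groups. They were not set against control cells. Beyond 1000 bp of an annotated start, on the strand of the gene, lay 134487 naïve tags and 132313 pretreated tags. These were 22.03% and 15.5% of the tags in windows named for these genes, on their strand. Of these, 55.4% and 52.7% were in windows annotated as exon. In 8 genes such tags outnumbered promoter tags in both groups: Mki67, Ccnb1, Ccna2, Nusap1, Mcm2, Mcm5, Cdt1 and Ccnd1. Since a window is named for the nearest start, some of these tags can belong to neighbouring genes. The distal window of most tags lay at -11523 bp for Nusap1 and at -22683 bp for Ccnb1, both upstream of the start. For Mki67 they were 9781 tags in 34 naïve cells and 1403 tags in 14 pretreated cells, against 313 and 635 promoter tags. On the opposite strand within 1000 bp of the start lay 9143 naïve and 11438 pretreated tags (1.88% and 1.56%), most of them at Aurka, Kif20a and Cdt1. Tags on that strand are not from the named gene itself, and the transcripts they belong to were not identified.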

How the results depend on the processing

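No paired analysis was possible because the cell number in a title only names a cell and each group is 1 sample. In the order all 42 genes, mitosis, replication and G1 regulators, the log2 ratios of the summed levels were -0.07, -0.04, -0.05 and -0.18 as reported. They were 0.10, 0.13, 0.12 and -0.0079 scaled to header totals, -0.19, -0.17, -0.18 and -0.30 under median-of-ratios scaling, 0.21, 0.34, 0.11 and 0.0144 with each cell weighted equally, -0.0019, 0.0014, 0.0128 and -0.0467 with all windows named for the gene, 0.0454, 0.0570, 0.0643 and -0.0245 with the GENCODE table, and -0.12, -0.0786, -0.12 and -0.25 without the highest cell of each gene. Windows within 300 bp moved the G1 regulators to -0.20. Leaving out Mcm6, chosen after seeing the data, moved all 42 genes to -0.14 and replication to -0.25. The median log2 ratio, 0.13 as reported, was 0.30 under header totals (0.38 over all genes of the series), 0.0012 under median-of-ratios scaling, 0.40 with cells weighted equally, 0.20 with all windows, 0.0894 without the highest cells, 0.25 with GENCODE, -0.16 at a minimum of 20 CPM (0.25 over all genes of the series) and -0.0851 at 200 CPM (0.12). Of 3 genes 2-fold higher and 4 lower, header totals gave 5 and 2, 200 CPM gave 1 and 2, and equal weights and GENCODE each gave 2 lower. Of the 24 genes, 19 kept their sign under the 9 settings and 5 did not (Birc5, Ube2c, Mcm3, Gins2 and Rrm1). A normalised tag count of at least 500 lowered the median share of pretreated cells from 38.2% to 23.5% and of naïve cells from 25.5% to 17.9%. Joining windows within 150 bp gave the same leading site in 24 of 24 genes in place of 12, which the joining itself fixes, since the leading windows of a gene lay at most 101 bp apart between the groups.

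Depth limits these values through peak calling, since a gene without a called peak in a cell is not listed, and the level at which this happens is not sharp (136.7 tags per 10000000 in the lowest listed peak of the 42 genes). Thinning each cell to 555373 promoter tags, which left out 16 naïve and 2 pretreated cells, changed the shares little, but it thins only peaks already listed and so hardly tests depth. No molecular identifiers were named, and the groups differ in library, which cannot be told apart from pretreatment.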
